A study of Caenorhabditis elegans with 2 samples.

Results

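Proteasome subunit genes were examined for the binding of tagged EKL-4 in young adult Caenorhabditis elegans. They were taken by name, as the protein-coding genes whose names begin with pas-, pbs-, rpt- or rpn- and go on with a digit, which gave 33 genes of 19973 on the nuclear chromosomes. Of these, 14 encode the core particle (7 pas genes and 7 pbs genes) and 19 the regulatory particle (6 rpt genes and 13 rpn genes). Every animal came from strain RW12207, which carries st12207[ekl-4::TY1::EGFP::3xFLAG], an insertion made with CRISPR at ekl-4 itself, so the tagged protein is made from the gene's own locus. Chromatin of whole worms, collected as young adults at 65 h after synchronisation of starved first-stage larvae, was precipitated with an antibody to GFP and sequenced (ChIP-seq). The labels give 2 biological replicates of this 1 group, and no untagged or treated animals were analysed here. All tissues of the worm were pooled, so strong binding in few cells and weak binding in many cannot be told apart.

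The proteasome is the protease that degrades proteins marked with ubiquitin. Its core particle is a barrel of stacked rings, in which alpha subunits (pas genes) form the outer rings and gate the channel, and beta subunits (pbs genes) form the inner rings and hold the cutting sites. The regulatory particle caps the barrel: a ring of ATPases (rpt genes) unfolds substrates, other base subunits (rpn-1, rpn-2, rpn-10 and rpn-13) dock and bind ubiquitin chains, and the lid (the remaining rpn genes) removes ubiquitin. These roles are best known from yeast and human proteasomes, and the rpn genes were divided between base and lid by name. EKL-4 resembles human DMAP1, which belongs to chromatin complexes that acetylate histones and exchange the histone variant H2A.Z.

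A summit, the position of strongest signal in a peak, lay within 500 bp of an annotated transcript start at 9 of the 33 proteasome genes (27.3%, 95% Wilson interval 15.1 to 44.2%) in the main list of 2482 peaks. Over all protein-coding genes the figure was 1282 of 19973, or 6.42%. None of the proteasome genes is on the X chromosome, and the figure was 7.01% over autosomal genes and 2.67% over genes of the X chromosome. Intervals here cover counting error over genes, which are not replicates of a condition. The main list is the authors' conservative list, in which the peaks of both replicates were ranked against each other by irreproducible discovery rate (IDR), which scores how well a peak's rank repeats. Its signal value is the peak strength given by the authors' caller, on a scale that is not stated, and was used only to rank and describe peaks. Its IDR score has a maximum of 1000 and is at least 830 in the thresholded lists.

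The 9 genes were spread over the rings of the core and over the lid, but did not include an ATPase gene. In the core particle 5 of 14 genes had a main summit (35.7%, interval 16.3 to 61.2%): pas-1 and pas-4 of the 7 alpha genes, and pbs-1, pbs-3 and pbs-5 of the 7 beta genes. In the regulatory particle 4 of 19 genes had one (21.1%, interval 8.51 to 43.3%), and these intervals overlap over most of their range. They were rpn-3, rpn-9 and rpn-11 of the 9 lid genes and rpn-10 of the 4 other base genes. None of the 6 ATPase genes rpt-1 to rpt-6 had one, a count that allows a share of up to 50%. The difference between core and regulatory particle rested on the list. The thresholded list of replicate 1 alone had 1 of 14 core genes (7.14%) and 4 of 19 regulatory genes (21.1%), against 4.46% of all genes. That of replicate 2 had 3 core genes (21.4%) and 4 regulatory genes (21.1%), against 4.76% of all genes.

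The strongest binding at a proteasome gene was at rpn-3, which encodes a scaffold subunit of the lid. Its peak, chrIII:8447038-8447267 on ce11, had a signal of 425 and ranked 47 of 2482. The summit lay 200 bp upstream of rpn-3 in the intergenic space that it shares with hsp-110, the gene of a heat shock chaperone transcribed the other way, whose start was 244 bp from the same summit. A non-coding RNA gene, C30C11.14, also starts within 500 bp of it. In the replicates' own ranked lists the signal of the same site was 207 (replicate 1) and 236 (replicate 2), and it passed the IDR threshold in both. The next highest signal at a proteasome gene was 136, so rpn-3 stood apart from the other members.

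The rpn-3 promoter is shown because its main summit is the strongest of the group and lies beside a heat shock element, searched for as the unit TTC, then its reverse complement, then the unit again, with any 2 bases between them, on either strand. The stretch is chrIII:8447003-8447302 of the ce11 genome sequence (RefSeq's copy of WBcel235), on the strand of rpn-3, from 350 to 51 bases before its start. Capitals mark the 2 elements, at -341 to -329 and at -219 to -207. Both lie in the 444 bp between rpn-3 and hsp-110. The first is nearer to the start of hsp-110 and outside the 250 bases taken as promoter below. The summit is base 151 of the stretch, 7 bases after the second element.
rpn-3: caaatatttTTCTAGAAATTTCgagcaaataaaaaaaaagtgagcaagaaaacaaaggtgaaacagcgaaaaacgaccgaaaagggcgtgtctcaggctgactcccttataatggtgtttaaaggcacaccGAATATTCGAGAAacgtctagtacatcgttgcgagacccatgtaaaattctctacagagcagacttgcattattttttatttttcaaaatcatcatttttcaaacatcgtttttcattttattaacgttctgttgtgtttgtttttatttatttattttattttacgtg
This element lay in the 201 bp around the strongest summit of 2 of the 9 proteasome genes, rpn-3 and pbs-5 (22.2%), and of 31 of 1152 main summits at gene starts (2.69%). In promoters, taken as 250 bases before to 50 after the gene start, it lay at 2 of 33 proteasome genes, pas-1 and rpn-3 (6.06%), and at 1.97% of all genes. The strongest pbs-5 summit lay 188 bp inside the gene in a coding exon, and the pbs-5 promoter held no match. The match in the pas-1 promoter was outside the 201 bp around the pas-1 summit. A match describes the letters only, and binding by a heat shock factor was not measured.

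**Figure D1:**
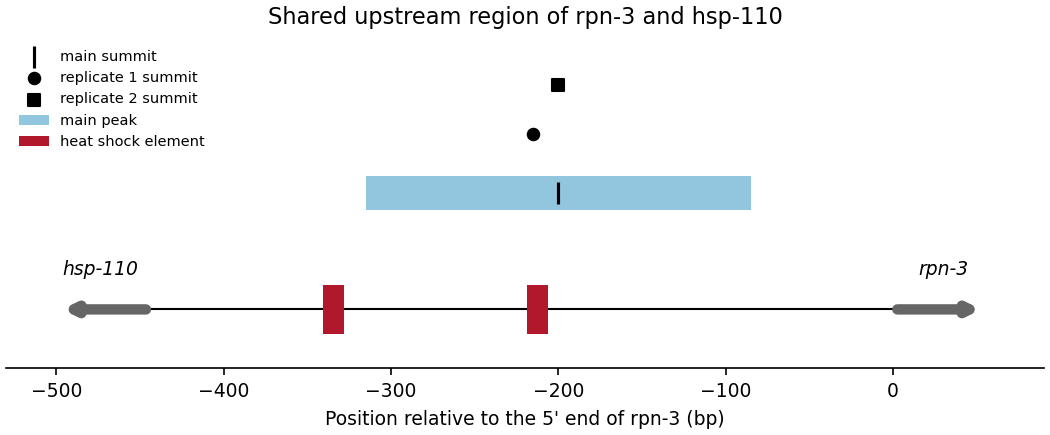
Map of the interval between hsp-110 and rpn-3, in bp from the start of rpn-3, with the main peak, its summit, the summits of the replicates and the heat shock elements found in the sequence. The summit of the main peak lies 200 bp before rpn-3 and 244 bp before hsp-110, beside the second element.

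Next in rank among the lid genes were rpn-11 and rpn-9. rpn-11 encodes the deubiquitinase of the lid, which cuts ubiquitin chains from substrates before they enter the core. Its peak, chrII:4044371-4044730, had a signal of 136 (rank 784) and a summit 5 bp before the gene start. It is an unshared site, with 64.4 in replicate 1 and 66.2 in replicate 2, and it passed the threshold in both. rpn-9, another lid subunit, had its peak at chrII:11239005-11239364 with a signal of 130 (rank 879) and a summit 266 bp upstream. That summit is 412 bp from the start of T06D8.9, the neighbouring gene on the opposite strand. The site had 62.0 in replicate 1 and 68.0 in replicate 2, and it too passed in both. The last regulatory gene, rpn-10, encodes a ubiquitin receptor. Its summit lay 141 bp inside the gene, in its coding exon (peak chrI:10732103-10732462), with a signal of 79.5 (rank 2069) and an IDR score of 908, near the lower limit of the list. The replicates gave it 40.6 and 45.0, and neither replicate's own list placed it past the threshold.

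Of the core genes, pas-1 had the highest main signal, 136 (rank 783), at chrV:14422349-14422708. This alpha subunit gene carried its summit 89 bp downstream of its start, in an intron. Its replicate values were 49.1 in replicate 1, with an IDR score of only 50, and 87.9 in replicate 2, where it passed. pas-4, also an alpha subunit gene, had a signal of 111 (rank 1170) at chrI:8728443-8728802 and a summit 136 bp upstream. That summit is 141 bp from the start of rpb-3, which encodes a subunit of RNA polymerase II and is transcribed the other way, and the RNA gene C36B1.16 also starts within 500 bp. The site had 35.7 in replicate 1 and 76.8 in replicate 2, and it passed in replicate 2 only.

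The 3 beta ring genes differed in which replicates' own lists held their peaks. pbs-1 had a signal of 105 (rank 1312) at chrIV:1709721-1710080, with a summit 156 bp upstream that lies 364 bp from the divergent gene K08D12.3. Its replicates gave 39.2 and 59.2, both past the threshold. pbs-5 had 2 main summits: the stronger, with a signal of 113 (rank 1126), lay 188 bp inside the gene in a coding exon (peak chrI:14720109-14720468), and the weaker, with a signal of 9.52 (rank 2427), lay 12 bp upstream. The site of the stronger had 54.3 and 53.3 in replicates 1 and 2 and passed in neither, with scores of 795 and 79. pbs-3 also had 2 summits, 99 and 314 bp upstream, with signals of 57.2 (rank 2304, chrII:4955346-4955705) and 39.5 (rank 2336). Both fell in an untranslated part of the upstream gene ulp-2, which encodes a SUMO protease. Within 200 bp of the stronger, the replicates had peaks of 32.4 and 48.1, and neither passed. The replicate 1 peak lay 167 bp from the stronger summit and nearer to the weaker one. The 9 genes thus held 11 distinct summits, and no summit was shared between proteasome genes.

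**Figure D2:**
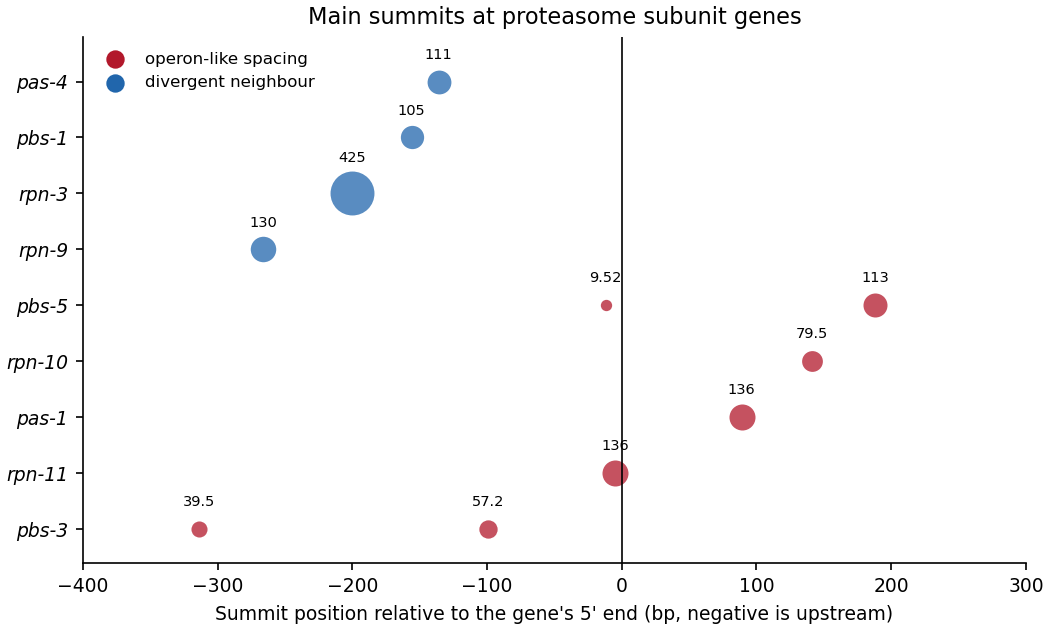
Distance of each main summit from the gene start, in bp (negative values upstream), for the 9 proteasome genes with one, with point area and label for the peak signal and colour for gene arrangement. The 4 summits shared with a divergent neighbour lie 136 to 266 bp upstream, and those of operon-like genes lie on both sides of the start.

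Sequences of 3 more of these sites are shown because rpn-11, rpn-9 and pbs-1, with rpn-3, are the 4 genes whose peak passed in the main list and in both replicates. Each is read 5' to 3' on the strand of the gene. Capitals mark matches to E2F forms (TTCCCGC or TTCGCGC or TTGCCGC or TTGGCGC) and to the SKN-1 core (TATCAT or TGTCAT), both searched on either strand. The rpn-11 stretch is chrII:4044547-4044651, the last 105 bases before the start, with an E2F form at -65 to -59. The rpn-9 stretch is chrII:11239085-11239285, from 366 to 166 bases before the start, and holds no match to the 5 motifs searched. The pbs-1 stretch is chrIV:1709801-1710001, from 256 to 56 bases before the start, with an E2F form at -184 to -178 and a SKN-1 core at -145 to -140.
rpn-11: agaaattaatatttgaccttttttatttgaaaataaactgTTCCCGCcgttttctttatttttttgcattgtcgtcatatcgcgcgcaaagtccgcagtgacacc
rpn-9: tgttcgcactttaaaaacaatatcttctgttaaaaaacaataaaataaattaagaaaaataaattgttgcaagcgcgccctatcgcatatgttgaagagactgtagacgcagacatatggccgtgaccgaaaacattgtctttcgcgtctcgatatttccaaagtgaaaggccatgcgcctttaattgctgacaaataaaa
pbs-1: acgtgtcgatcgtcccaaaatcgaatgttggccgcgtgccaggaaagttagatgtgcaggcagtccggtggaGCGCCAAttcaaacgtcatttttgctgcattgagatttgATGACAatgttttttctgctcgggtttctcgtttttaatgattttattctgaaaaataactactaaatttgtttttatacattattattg
The summit is base 101 in each of these sequences. rpn-11 is cut at the gene start, so that its stretch ends 4 bases after the summit.

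The signal of the 9 sites was close to that of main summits at gene starts in general. The strongest summit of each had a median signal of 113, against 112 over the 1152 main summits at gene starts and 108 over the whole list. For 6 of the 9 the signal was at or above the median of the list. The GC content of the 201 bp around the summit had a median of 39.8% (range 33.3 to 55.2%) for the proteasome genes, against 42.0% (quartiles 37.3 and 47.3%) for all main summits at gene starts.

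In the replicates, 8 of the 9 sites had a higher signal in replicate 2, and pbs-5 was the exception. The ratio of replicate 2 to replicate 1 ran from 0.983 at pbs-5 to 2.15 at pas-4, with a median of 1.14. Over the 2349 main peaks found in both ranked lists the median ratio was 1.38, and 95% of ratios lay between 0.742 and 2.44, so each of the 9 was within the range of the list. The genes fell into 3 sets: rpn-3, rpn-9, rpn-11 and pbs-1 passed in both replicates, pas-1 and pas-4 in replicate 2 only, and pbs-3, pbs-5 and rpn-10 in neither. The same split was not counted over all main peaks, so it describes these sites and does not set them apart. Replicate summits lay a median of 28 bp (replicate 1) and 4 bp (replicate 2) from the main summit, and at most 167 bp, at pbs-3 in replicate 1. That peak is nearer to the weaker pbs-3 summit, so its value and ratio may not describe the stronger. With a match of 100 bp, 8 of the 9 sites kept a ranked peak in both replicates, all but pbs-3. The thresholded list of replicate 1 held 5 of the 33 genes, against 4.46% of all genes, and included rpn-2, a base scaffold subunit that the main list lacks (signal 24.6). The list of replicate 2 held 7, against 4.76% of all genes, and included the lid gene rpn-6.1 (signal 56.5).

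**Figure D3:**
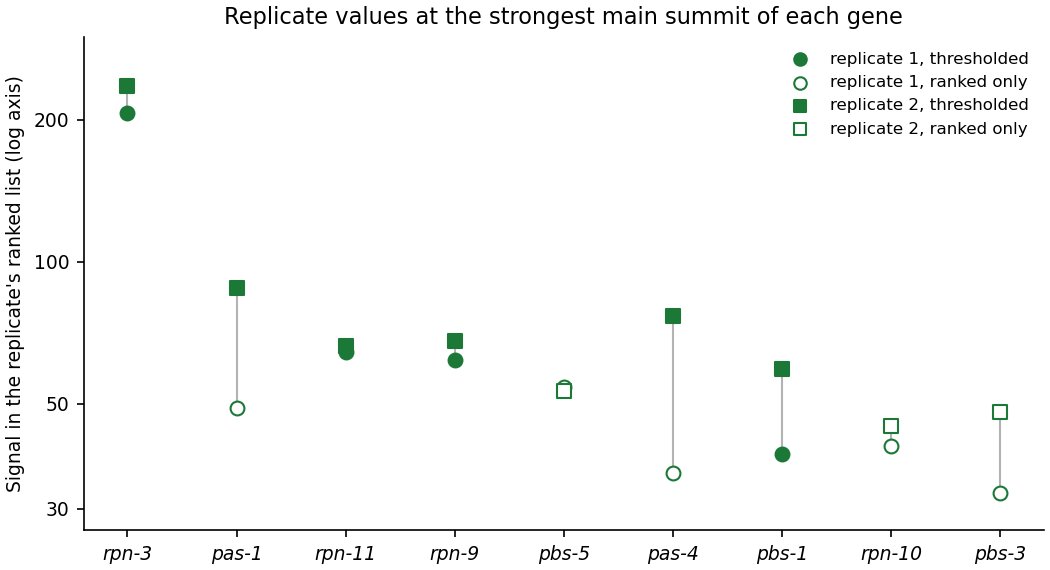
Signal (log axis) of each replicate's ranked peak at the strongest main summit of the 9 genes, in order of main signal, with circles for replicate 1, squares for replicate 2 and filled marks where the peak passed the threshold. rpn-3 stands at 207 and 236, and the other 8 genes lie between 32.4 and 87.9. The replicate 1 peak of pbs-3 lies 167 bp from its strongest main summit and nearer to its weaker one.

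Of the 9 genes, 5 were operon-like and 4 divergent. A gene was called operon-like where the 3' end of a gene upstream on the same strand lay within 500 bp of its start, and otherwise divergent where the start of a gene on the opposite strand lay within 1000 bp upstream. Many worm genes are transcribed in operons from a promoter before the first gene and separated by trans-splicing, but spacing alone does not show that a pair is an operon. Of the 8 operon-like proteasome genes 5 had a main summit (62.5%, interval 30.6 to 86.3%), against 320 of 3615 operon-like genes in all (8.85%). They were pas-1 (107 bp from rpoa-12, which encodes a subunit of RNA polymerase I), pbs-3 (23 bp from ulp-2), pbs-5 (111 bp from K05C4.2), rpn-10 (119 bp from mrpl-9, a mitochondrial ribosomal protein gene) and rpn-11 (225 bp from K07D4.2). The 3 without one were rpn-6.2, rpn-13 and rpt-3, and rpt-3 lay 479 bp from chtb-2, just inside the limit, while rpt-1 lay 504 bp from mans-2, just outside. Of the 20 divergent proteasome genes 4 had a summit (20%), against 14.2% of all divergent genes. None of the other 5 had one, a count that allows up to 60%, against 3.61% of such genes in all.

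**Figure D4:**
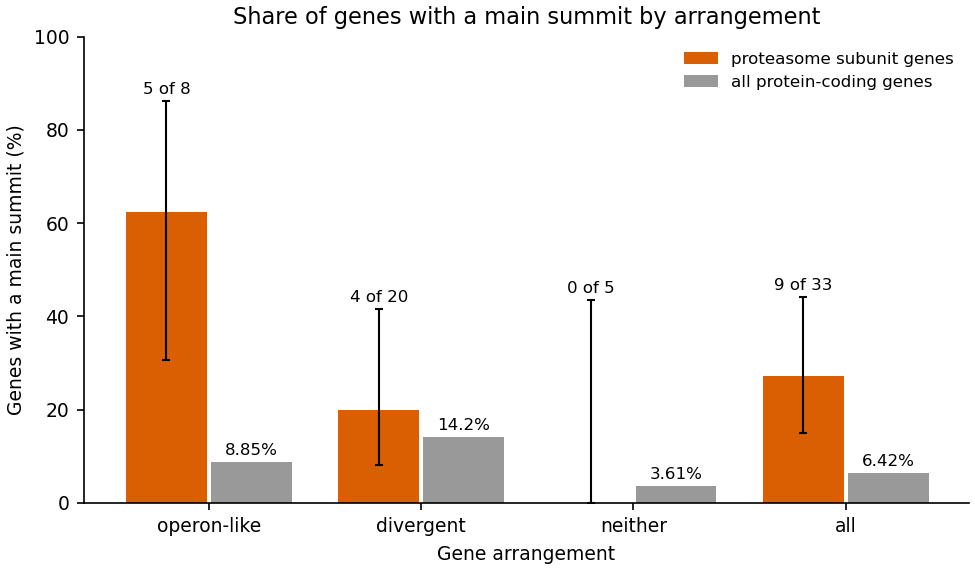
Percentage of proteasome genes (orange bars, with 95% Wilson intervals as error bars) and of all protein-coding genes (grey bars) that have a main summit within 500 bp of a transcript start, by gene arrangement. Of the operon-like proteasome genes 5 of 8 had one, and of all operon-like genes 8.85%.

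The difference by arrangement was less steady than the total. With operon-like genes limited to a gap of 250 bp, 5 of 6 proteasome genes had a main summit, against 9.17% of all such genes. In the larger thresholded list 3 of the 8 had one, against 10.3% of all operon-like genes. In replicate 1 alone 1 had one (rpn-11), against 5.23%, and in replicate 2 alone 2 (pas-1 and rpn-11), against 6.58%. Outside operon-like spacing, 4 of 25 proteasome genes had a main summit (16.0%, interval 6.40 to 34.7%), against 5.88% of all genes so placed. These were 2 of 11 core genes and 2 of 14 regulatory genes. Within operon-like spacing, where the share over all genes was 8.85%, 3 of 3 core genes and 2 of 5 regulatory genes had a summit.

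Position and sharing differed by arrangement, sharing in part through the window itself. All 4 divergent genes with a summit (pas-4, pbs-1, rpn-3 and rpn-9) had it upstream and shared it with the divergent neighbour. At gaps of 277 bp (pas-4) and 444 bp (rpn-3), any summit between the 2 starts is within 500 bp of both and must be shared. At a gap of 520 bp (pbs-1) this holds for nearly any summit between the starts. At 678 bp (rpn-9) it holds only for a summit in the middle part of the gap, so sharing was not forced. All 5 operon-like genes had summits of their own, and for 3 of them (pas-1, pbs-5 and rpn-10) the strongest lay inside the gene. Over all genes with a main summit 36.8% shared it with another protein-coding gene: 9.69% of operon-like genes and 45.8% of the others. The strongest summit was upstream of the start at 59.1% of operon-like genes with one (median -41.5 bp, quartiles -176 and 60.8) and at 82.5% of the others (median -186.5 bp, quartiles -309 and -54). The split among the proteasome genes ran the same way as that over all genes.

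In the 8 runs of closely spaced genes that hold an operon-like proteasome gene, a main summit was at the proteasome gene in 5 and at the first gene of the run in none. The first gene had a main summit for 391 of all 3615 operon-like genes (10.8%), so 0 of 8 is near the share over all of them. Of the operon-like genes that had a main summit themselves, the first gene also had one for 0 of the 5 proteasome genes, against 97 of 320 genes in all (30.3%). A count of 0 of 5 allows a share of up to 60%, so it does not set these genes apart. Before the 5 proteasome genes with a summit, the first genes were rrsr-1, ulp-2, K05C4.2, mrpl-9 and K07D4.2, with ranked signals between 31.0 (K07D4.2) and 66.3 (K05C4.2). In the run of pas-1, the middle gene rpoa-12 had a main summit of its own, 253 bp upstream, with a signal of 88.2.

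Below the threshold, ranked peaks were found at nearly every proteasome gene. In the ranking behind the main list, which also holds peaks of low score, 32 of 33 had a peak within 500 bp, all but pas-2, against 60.0% of all genes. In replicate 1 all 33 had one, against 44.7%, and in replicate 2 all but pbs-4 had one, against 66.6%. The strongest such signal had a median of 57.2 (quartiles 44.8 and 79.5) over the proteasome genes and 20.5 over all genes, a gene with no peak counting as 0. It was above the median of all genes at 31 of 33, and in the top 10% of all genes at 11 of 33 (33.3%). In the separate replicates, 14 of the 33 (42.4%) were in the top 10% of replicate 1 and 13 (39.4%) in that of replicate 2. The 24 proteasome genes without a main summit had a median of 48.2, against 16.9 over the genes without one. How far such levels follow the activity or openness of a promoter was not tested.

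By subcomplex, the ranges of this signal overlapped. The median was 44.1 for the alpha genes, 57.2 for the beta genes, 59.0 for the ATPase genes, 46.8 for the other base genes and 66.9 for the lid genes. The ATPase genes, none of which had a main summit, all lay above the median of all genes. The signal was 47.8 at rpt-1, 59.3 at rpt-2, 71.3 at rpt-3, 36.9 at rpt-4, 58.7 at rpt-5 and 63.8 at rpt-6, so the highest ATPase gene was below 8 of the 9 genes with a main summit, all but pbs-3. Of genes without a main summit, the 9 of the core had a median of 44.1 and the 15 of the regulatory particle 53.2. In the alpha ring these were pas-3 (38.2), pas-5 (27.4), pas-6 (44.8), pas-7 (44.1) and pas-2, and in the beta ring pbs-2 (40.1), pbs-4 (54.5), pbs-6 (46.8) and pbs-7 (61.6). Of the base, rpn-1 and rpn-2, which encode its large scaffold subunits, had 48.6 and 45, and rpn-13, a ubiquitin receptor gene, had 37.7. In the lid the signal was 87.4 at rpn-6.1, 66.9 at its paralog rpn-6.2, 59.2 at rpn-5, 53.2 at rpn-8 and 52.5 at rpn-7. The lid thus held the highest of these genes, and also the lowest with a peak. The lowest values were 12.2 at rpn-12 and no peak at pas-2. The replicates' own lists gave 31.1 and 44.4 at rpn-12, and 22.2 and 29.2 at pas-2. The joint peak of rpn-12 lay 146 bp upstream, and its replicate peaks lay 471 and 474 bp downstream. These replicate peaks thus matched each other but not the joint peak. At pas-2 the peak of replicate 1 was at 10 bp and the stronger of 2 in replicate 2 at -172 bp from the start. pbs-4, which had no ranked peak in replicate 2, had 29.2 in replicate 1 and 54.5 in the joint ranking.

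**Figure D5:**
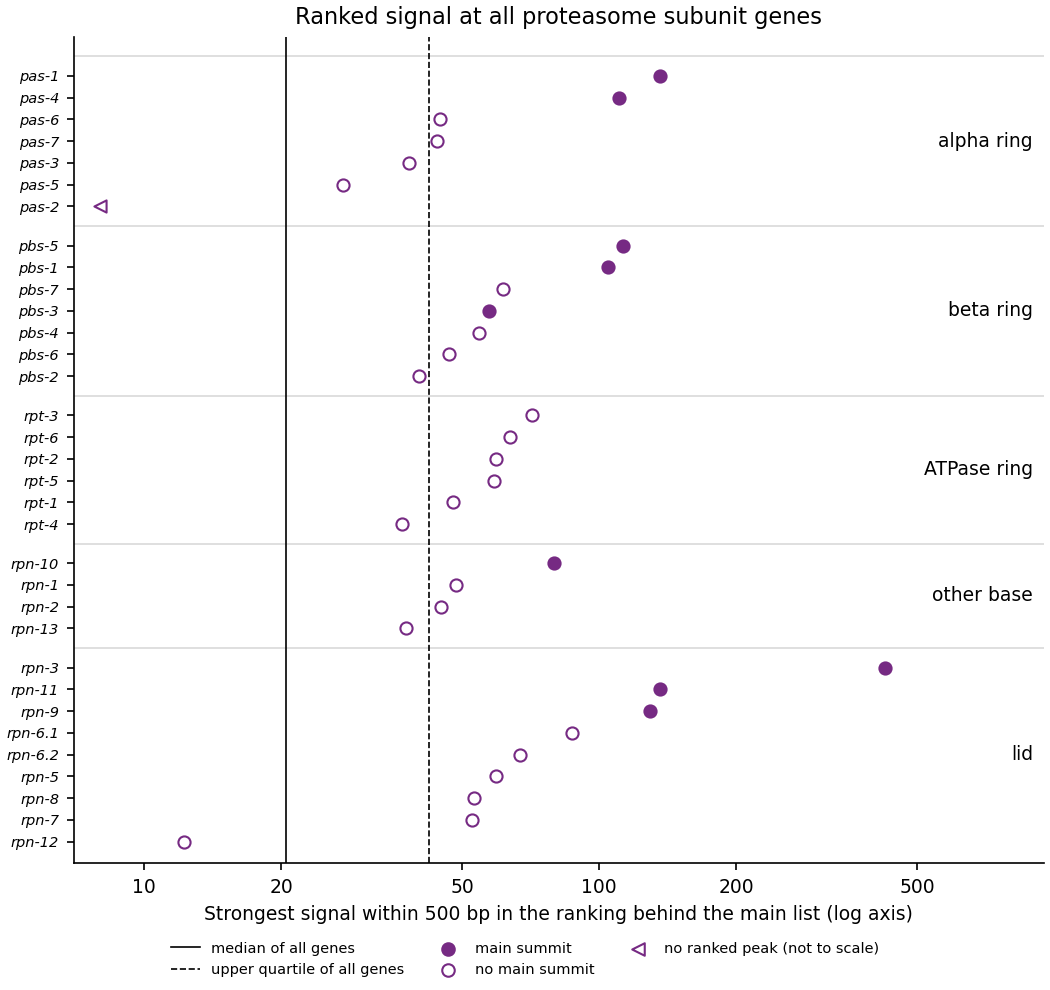
Strongest ranked signal within 500 bp of each of the 33 proteasome genes (log axis), by subcomplex, with filled points for genes with a main summit and lines at the median and upper quartile of all genes. All but rpn-12 and pas-2 lie above the median of 20.5.

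The genes nearest the score threshold from below were rpn-6.1 with 785, pbs-7 with 679, rpt-3 with 596 and pas-6 with 589. Those nearest from above were pbs-3 with 886 and rpn-10 with 908. rpn-6.1 is a lid gene whose raised expression is known to protect worms from protein stress. Its peak, 387 bp upstream, had a signal of 87.4, higher than at pbs-3 or rpn-10. The divergent gene F57B9.1 starts 89 bp from rpn-6.1, so this summit lay past the start of F57B9.1 and nearer to it. The peak passed in the larger list with a score of 967. That list held 8 of the 33 genes, against 7.2% of all genes, and lacked pbs-3 and rpn-10. By distance, the farthest strongest summit counted was that of rpn-9 at 266 bp, and the nearest not counted were 755 bp from rpn-12 and 892 bp from pas-5.

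Genes that work with the proteasome but lie outside the naming rule were compared as a list of 15, of which 14 were found. A main summit was present at 4 of the 14 (28.6%), against 6.42% of all protein-coding genes. ecps-1, a worm relative of the proteasome adaptor ECM29, had a signal of 174 at 212 bp upstream. ubql-1 and rad-23, which encode shuttle proteins that carry ubiquitinated substrates to the proteasome, had 136 at 490 bp upstream and 113 at 360 bp downstream. wdr-23, which encodes the adaptor that targets SKN-1 for degradation, had 96.2 at 147 bp upstream. rad-23 is the divergent neighbour of rpn-12, 395 bp away, and the summit inside rad-23 is the one that lay 755 bp from rpn-12. The 10 without one were dss-1, psme-3, psmd-9, ecps-2, usp-14, ubh-4, png-1, ddi-1, akir-1 and skn-1, the gene of the factor that raises proteasome subunit transcription in worms. The median of the strongest ranked signal was 56.4 over the 14, against 20.5 over all genes.

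The COP9 signalosome and translation initiation factor eIF3 are built partly from subunits of the same folds as the lid. Of 20 such names 16 were found, and 2 of those had a main summit (12.5%), against 6.42% of all protein-coding genes. They were eif-3.C with a signal of 381 at 258 bp upstream, and eif-3.B with 169 at 290 bp upstream. None of the 6 csn genes found had one, which allows a share of up to 50%, far above the 6.42% of all genes. The median of the strongest ranked signal was 40.8 over the 16, against 57.2 over the proteasome genes and 20.5 over all genes.

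Of the 5 motifs, the SKN-1 core was the most frequent at proteasome genes. It lay in 15 of 33 proteasome promoters (45.5%) and in 32.3% of all promoters. By particle, this was 5 of 14 core and 10 of 19 regulatory promoters. It was in the promoters of 2 of the 9 genes with a main summit, pbs-1 and rpn-11 (22.2%), and of 22.8% of all genes with one. In the 201 bp around the strongest summit it lay at the same 2 of 9 (22.2%), against 12.6% of main summits at gene starts. E2F forms lay in 5 of 33 (15.2%: pas-3, pas-5, pbs-1, rpn-8 and rpn-11), against 9.21% of all promoters. In the 201 bp around the summit they lay at 2 of 9 (pbs-1 and rpn-11, 22.2%), against 20.6% of main summits at gene starts. The letters CTGCGTCTC lay in 0 of 33, against 2.93%, and the E-box CACGTG in 1 of 33 (rpn-6.2), against 5.82%. Some E2F forms read on opposite strands overlap each other, and each promoter was counted once per motif.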

How the data were processed

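EKL-4 ChIP-seq was deposited for 2 replicates of 1 group as peak lists on ce11. The authors called peaks against a control and ranked them by IDR, per the text files that accompany the lists. Which aligner and caller were run is not given in the sources used here, and the read depth is unknown. The deposited signal is the strength the authors' caller gave each peak, on an unstated scale. The deposited score is the authors' IDR score. Of the lists, 7 were used: conservative thresholded (main) and its ranking, a larger thresholded list, and a ranked and a thresholded list per replicate. Not used were 8 further columns of the ranking, which describe single libraries.

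Genes were those of Ensembl 115 on WBcel235, the same build, with positions 1-based. A summit within 500 bp of any transcript start counted for the gene, and a replicate summit within 200 bp matched a main one. Named genes are all members with a main summit, those next to the threshold, genes sharing a summit, and listed genes with one. Members, lists and motifs were chosen with earlier results of these data known, so no test was run over them. Shares carry 95% Wilson intervals, and a share of 0 the limit of 3 counts. The assignment was tested on simulated data. The software was matplotlib 3.10.9, scipy 1.17.1, pandas 2.3.3 and numpy 2.4.6 under Python 3.11.15. Alternatives were other lists, windows, assignments, spacings and matches.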

Additional observations from a re-analysis of the deposited data

How the results depend on the processing

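Of 74 recomputed values, 53 stayed close to the reported one and 21 moved. Close was a wide band for counts: 6 proteasome genes (summits at or above the median signal) counted as close to 9, and 5 (replicate 1 alone) as moved. For the median signal it was a change below 12.1. The share of all genes was smaller in these settings too: 3.84% at the median cut, 4.46% in replicate 1 and 4.76% in replicate 2, against 6.42% in the main list. Leaving out 1 replicate, so that the other's own thresholded list was used, gave 5 to 7 proteasome genes (9 reported), 1 to 3 core genes (5), 5 to 8 distinct summits (11), 1 to 2 operon-like genes (5) and a median signal of 62.0 to 68.0 (113), on each list's own scale. The larger list gave 3 operon-like genes. Summits at or above the median signal of the list, which 3.84% of all genes had, left 3 core genes, 6 distinct summits and 3 operon-like genes. Their median signal was 133. Without operon-like genes, 4 of 25 proteasome genes (16.0%) had a main summit, 2 of the core and 2 regulatory, with 4 summits, against 5.88% of all such genes; with them the share was 27.3%, against 6.42%. Sharing (4 genes) was 2 within 250 bp, 8 within 1000 bp and 0 when each summit went only to its nearest gene. Ranked peaks in both replicates (32 genes) became thresholded peaks in both at 4. The share of all genes with a peak in both was not counted. In the single lists of replicates 1 and 2 that share was 44.7% and 66.6% for ranked peaks. For thresholded peaks it was 4.46% and 4.76%. When each summit goes to its nearest gene, sharing of 0 follows from the rule, ties aside. A cut at the median signal drops only weaker summits, so the higher median signal follows as well. The cause of the other changes was not tested, beyond the smaller lists, windows and sets they use.

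No paired analysis was possible because there is 1 group. The lists hold no read counts, so weak binding below the threshold cannot be told from none. Groups of 3 to 9 genes give wide intervals, and annotated starts of trans-spliced genes mark a splice site and not the start of transcription.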
